A study of Mus musculus with 27 samples.

Results

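Joins between an immunoglobulin heavy chain break and DNA elsewhere in the genome were examined at 3 windows of 10 kb, 1 on chromosome 14 and 2 on chromosome 8, in the mouse B-cell line CH12F3. The windows were chosen by their number of joins, since they were among the 10 kb windows with the most joins outside chromosome 12, in all 9 tables read together. Window 1 (mm9, chr8:125950000-125959999) held 293 joins, window 2 (chr8:129110000-129119999) held 162 and the chromosome 14 window (chr14:115440000-115449999) held 117. These 572 joins were 1.46% of the 39296 joins outside chromosome 12 and 0.296% of all 193201 joins. Of the 29481 windows with any join outside chromosome 12, the 3 ranked 2nd, 4th and 5th. The 3rd window had 208 joins and lay on chromosome 1, and the 6th, just outside the range of these 3, had 106 and lay on chromosome 6. Because the count of joins selected the windows, shares of joins are given as a description with no test.

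The cells were Ligase4-/- (2 clones), XLF-/-PAXX-/- (2 clones), XLF-/- (2 clones), PAXX-/- (2 clones) and WT (the parental line, 1), each with 3 libraries. Every library was of genomic DNA taken after 72 h in 20 ng/mL IL-4, 1 mg/mL αCD40 (the unit the labels give) and 1 ng/mL TGFβ, a mix that drives switching to IgA. The series describes both double-mutant clones as offspring of a PAXX-/- clone and 1 Ligase4-/- clone as obtained from elsewhere, so the clones are not all independent. Libraries held 3610 to 14524 joins, of which 636 to 3226 lay outside chromosome 12.

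In class switching, the enzyme AID deaminates cytosines in transcribed switch regions, and the breaks that follow are joined by classical non-homologous end joining. DNA ligase 4 seals the ends in that pathway, and XLF and PAXX are accessory factors that help to hold and align them. Without these factors ends can still be joined, often at a few bases that both ends share, which are called microhomology. AID also acts at lower rates on transcribed genes outside the immunoglobulin loci, and a break there can be joined to the switch region as a translocation. LAM-HTGTS reads such joins by extending from a fixed bait break into the DNA joined to it, the prey.

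The reads themselves placed 2 of the windows at known loci. Prey bases in window 2 matched the RefSeq promoter of Irf2bp2 (GRCm38.p6), which encodes a nuclear co-repressor that binds interferon regulatory factor 2. Of that promoter's 300 bases, 242 were covered and equal, 1 was covered and different, and 57 were not covered. The match put the start of Irf2bp2 at 129117886 of mm9, with the gene running towards lower coordinates. The promoter of Gm32709, on the plus strand, matched in part only, with 98 bases equal, 178 different and 24 not covered. Prey bases in the chromosome 14 window matched the hairpins of Mir17, Mir18, Mir19a, Mir20a, Mir19b-1 and Mir92-1 over their full lengths. These 6 hairpins form the miR-17-92 cluster, whose microRNAs restrain apoptosis and are often overexpressed in B-cell lymphoma. The Mir17 hairpin began at 115442893 of mm9, and the cluster spanned 836 bases from there. Within that span the RefSeq promoter of Mir17hg also matched over its full 300 bases and held 8 joins. Nothing in the promoter and microRNA tables used here gave window 1 a name.

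The most densely joined 150 bases show how the joins lay within these 2 loci. Each line is the mm9 plus strand, with every base at which a join was recorded in capitals.
Window 2, chr8:129116443-129116592: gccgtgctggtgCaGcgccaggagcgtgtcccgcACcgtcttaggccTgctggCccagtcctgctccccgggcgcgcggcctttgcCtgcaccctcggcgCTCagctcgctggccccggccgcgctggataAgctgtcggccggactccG
Chromosome 14 window, chr14:115440433-115440582: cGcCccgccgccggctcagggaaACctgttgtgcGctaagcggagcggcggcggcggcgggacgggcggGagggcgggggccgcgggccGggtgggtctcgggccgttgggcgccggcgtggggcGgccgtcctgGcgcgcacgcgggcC
The first stretch lay 1294 to 1443 bases into Irf2bp2 and held 12 joins at 12 positions from 5 clones. The second lay 2311 to 2460 bases before the Mir17 hairpin and held 11 joins at 10 positions from 6 clones. Both were rich in G and C, at 74.7% and 84.0% of their bases.

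Joins also fell inside the microRNA hairpins. The Mir18 and Mir20a hairpins, shown in the same way in DNA letters, held 4 joins each, Mir19b-1 held 3, Mir19a held 1, and Mir17 and Mir92-1 held 0.
Mir18 hairpin, chr14:115443073-115443168: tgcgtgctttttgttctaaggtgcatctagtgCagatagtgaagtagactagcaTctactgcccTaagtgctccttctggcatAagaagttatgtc
Mir20a hairpin, chr14:115443379-115443485: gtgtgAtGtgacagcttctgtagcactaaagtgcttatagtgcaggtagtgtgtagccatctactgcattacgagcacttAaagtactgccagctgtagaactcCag

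Few positions were joined more than once, and no position in the 3 windows had over 2 joins. The position with the most distinct joins (prey position, strand and uncorrected bait end) was 125950484 in window 1, 129115515 in window 2 and 115440467 in the chromosome 14 window. Each had 2, all on the plus strand and each from 1 library. With the bait end corrected for inserted bases, the 2 lines at 129115515 counted as 1 join, and so did the 2 at 115440467. The mm9 bases on either side of the positions in window 2 and on chromosome 14 are printed here with the prey side in capitals.
Window 2, chr8:129115505-129115524: tggggactggCCATTCTGGG
Chromosome 14 window, chr14:115440457-115440476: cctgttgtgcGCTAAGCGGA
The reads at these positions show the join itself, with the last 40 bases of the bait first and the first bases of the prey last, in lower case. Capitals mark bases that neither alignment covered, which number 1 in the first read and 6 in the second. Both are from Ligase4-/- clone 1.
Window 2, prey chr8:129115515-129115574: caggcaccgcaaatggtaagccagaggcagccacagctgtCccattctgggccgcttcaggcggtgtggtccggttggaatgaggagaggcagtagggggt
Chromosome 14 window, prey chr14:115440467-115440505: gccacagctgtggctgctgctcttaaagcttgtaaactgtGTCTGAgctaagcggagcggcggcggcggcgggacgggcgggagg
A further position in window 2, 129116987, was joined in Ligase4-/- clone 1 and in XLF-/-PAXX-/- clone 2. Capitals now mark the bases that the bait and prey alignments shared, 5 in the read of Ligase4-/- clone 1 and 8 in the read of XLF-/-PAXX-/- clone 2.
Ligase4-/- clone 1, prey chr8:129116987-129117041: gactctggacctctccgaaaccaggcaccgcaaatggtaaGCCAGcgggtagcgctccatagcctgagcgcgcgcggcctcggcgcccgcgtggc
XLF-/-PAXX-/- clone 2, prey chr8:129116987-129117034: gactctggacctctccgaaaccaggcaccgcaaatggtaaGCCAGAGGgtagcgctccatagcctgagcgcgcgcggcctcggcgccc
The 2 reads were given the same prey position. At the 6th prey base the first read has C, as the mm9 reference does, and the second has A. The 8 shared bases of the second read thus include 1 that differs from the prey reference. Lengths of microhomology can therefore count mismatched bases.

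The 2 Ligase4-/- clones were far apart in their share of joins in the windows. Ligase4-/- clone 1 gave 300 of the 572 joins (52.4%), while it gave 22.5% of all joins outside chromosome 12. Its 3 libraries came from 3 sequencing runs and put 1.55%, 3.70% and 5.25% of their joins outside chromosome 12 into the windows. Ligase4-/- clone 2 gave 0.908%, 0.534% and 0.978%, all in 1 run, and every library of clone 1 lay above every library of clone 2.

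For window 1, the share of joins outside chromosome 12 was 1.91% ± 1.01 in Ligase4-/- clone 1 and 0.461% ± 0.209 in Ligase4-/- clone 2 (SD, n = 3 libraries, here and below). It was 0.341% ± 0.217 and 0.622% ± 0.194 in the XLF-/-PAXX-/- clones. In XLF-/- it was 0.529% ± 0.128 and 0.477% ± 0.190, and in PAXX-/- it was 0.700% ± 0.135 and 0.159% ± 0.0596. WT had 0.0986% ± 0.171, from 2 joins in 1 of its libraries. The 2 PAXX-/- clones did not overlap with each other, while the libraries of both XLF-/- clones lay within the range of the XLF-/-PAXX-/- clones.

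For window 2, at Irf2bp2, the share was 1.07% ± 0.415 and 0.174% ± 0.0981 in the Ligase4-/- clones and 0.360% ± 0.0841 and 0.633% ± 0.229 in the XLF-/-PAXX-/- clones. In XLF-/- it was 0.318% ± 0.0656 and 0.185% ± 0.161. In PAXX-/- it was 0.0684% ± 0.0594 and 0.0227% ± 0.0394, from 2 joins and 1 join, and WT had 0.0926% ± 0.0807, from 2 joins. The 6 libraries of the XLF-/-PAXX-/- clones all lay above the 6 of PAXX-/- and the 3 of WT, each of which held 0 or 1 join. These groups came from different sequencing runs, and their joins were among those that chose the window. The order is thus a description and not a test of genotype.

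For the chromosome 14 window, at the miR-17-92 cluster, the share was 0.522% ± 0.482 and 0.172% ± 0.152 in the Ligase4-/- clones and 0.241% ± 0.0485 and 0.485% ± 0.180 in the XLF-/-PAXX-/- clones. In XLF-/- it was 0.528% ± 0.238 and 0.103% ± 0.0918, and in PAXX-/- it was 0.117% ± 0.0253 and 0.137% ± 0.0464. WT had 0 joins of 2101, which allows a share of up to 0.143%, a limit on counting error only. The clone 1 libraries of Ligase4-/- ranged over 0.124%, 0.384% and 1.06%, and 1 library held 29 of its 44 joins.

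**Figure D1:**
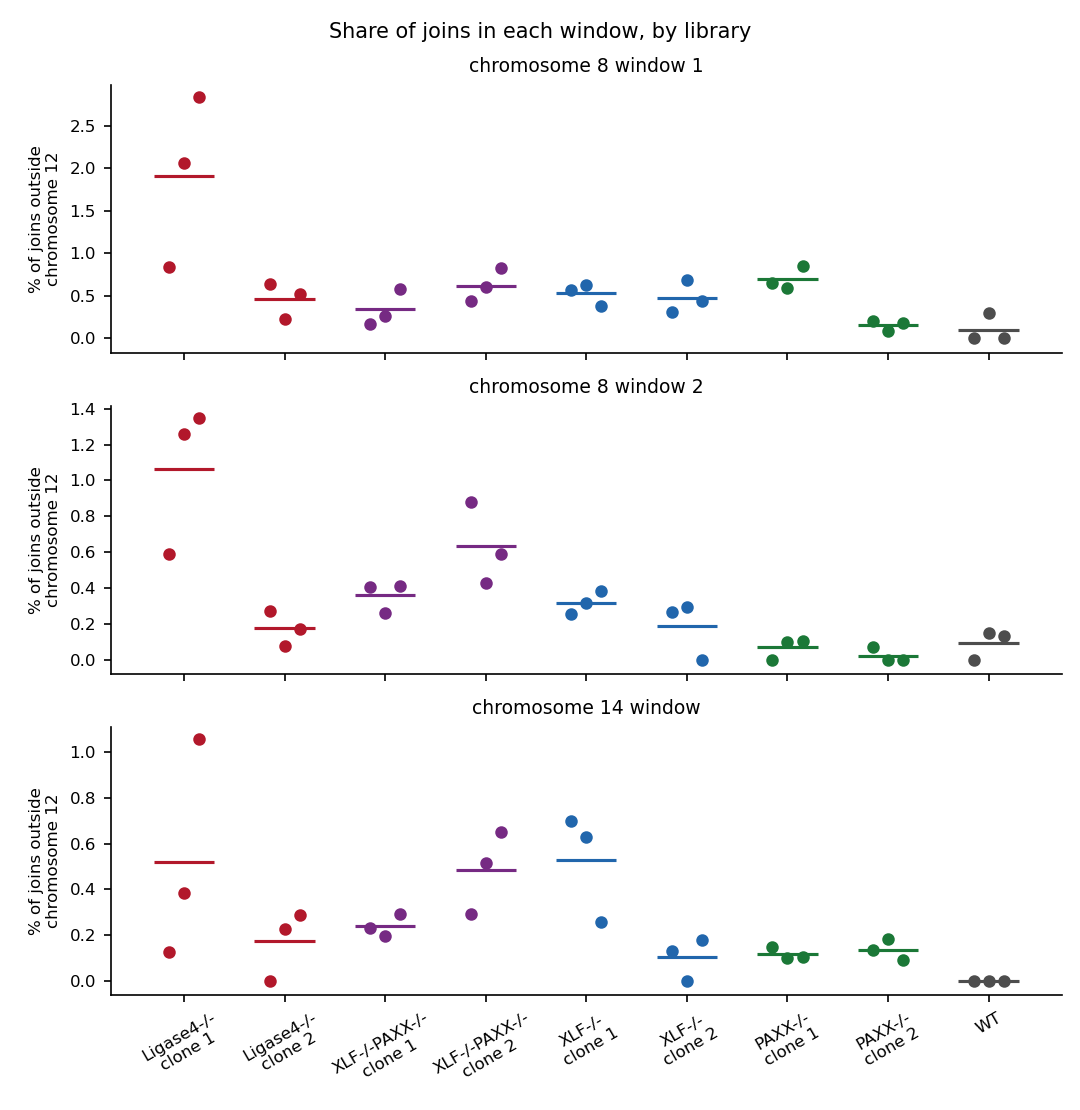
Share of joins outside chromosome 12 that fell in each window (y axis, percent), 1 point per library and 1 column per clone, with a line at the mean of 3 libraries. Ligase4-/- clone 1 spread from 0.837% to 2.84% in window 1, and all 3 WT libraries were at 0 in the chromosome 14 window.

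Summed over the 3 windows, the shares were 3.40% and 0.751% in the Ligase4-/- clones, 0.949% and 1.81% in XLF-/-PAXX-/-, 1.41% and 0.744% in XLF-/-, 0.873% and 0.328% in PAXX-/- and 0.190% in WT. The 95% Clopper-Pearson interval of the WT share, 0.0519% to 0.487%, overlapped with the 0.170% to 0.572% of PAXX-/- clone 2. It lay below the intervals of the other 7 clones, the closest of which began at 0.513% in XLF-/- clone 2. The windows were chosen by counts over all clones, with 52.4% of their joins from Ligase4-/- clone 1. Comparing these intervals is therefore not a test of WT against the other clones. Only PAXX-/- and XLF-/- shared sequencing runs. Within those runs XLF-/- had 1.04% and 0.980%, against 0.599% and 0.579% in PAXX-/-, with overlapping intervals in both. For the other genotypes the run and the genotype cannot be told apart. Reads here are counted after PCR, so these intervals cover counting error only.

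Within each window the joins were scattered over kilobases. The middle 50% of joins covered 2194 bases in window 1, 2361 in window 2 and 2370 in the chromosome 14 window. The densest window outside chromosome 12, on the same chromosome 14 (chr14:32420000-32429999, 1084 joins), was unlike them in this: all its joins lay within 315 bases and the middle 50% within 163. The clones behind the 2 kinds of window differ. Ligase4-/- clone 1, with 52.4% of the joins in the 3 windows, had 0 of its 8831 joins outside chromosome 12 there. The other clones had 1.57% to 5.76% of their joins outside chromosome 12 there. Without that clone, a setting chosen after seeing the data, the middle 50% covered 2018 bases in window 1, 2387 in window 2 and 3129 in the chromosome 14 window. Different positions numbered 276 of 293 joins in window 1, 156 of 162 in window 2 and 114 of 117 in the chromosome 14 window, against 270 of 1084 there. Joins at a position and strand seen more than once were 9.56%, 4.94% and 3.42% of joins in the 3 windows, 89.4% in that densest window and 9.21% of the other joins outside chromosome 12.

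Counted by prey position, strand and a bait end corrected for shared or inserted bases, the 572 lines were 561 different joins. Of the 11 that were listed again, 6 lay within 1 library and 3 in different clones, including the pair at 129116987 whose letters differ.

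Window 1 was bounded sharply. Its joins ran from 125950211 to 125958094, and within 100 kb on both sides of the window there were 5 further joins. Most joins, 259 of 293, lay in the first 4500 bases, and another 31 lay between 7000 and 8499 bases, with 3 joins in the 2500 bases between them. The 2 other windows shaded off: 33 joins lay within 10 kb of window 2 and 80 within 10 kb of the chromosome 14 window. Of those 80, 74 lay in the 10 kb just before the window, in 7 clones, and WT had 0 there too.

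The bases at the joins of window 1 were also of a different kind. Of 293 joins, 273 (93.2%) had all 20 of their reference bases in lower case, the mark for interspersed repeats in the genome files of this build, against 35.0% of other joins outside chromosome 12. The same was true of 3.09% of joins in window 2 and 7.69% in the chromosome 14 window. A gapless run of 3789 bases could be read from its joins, with an uninterrupted run of 739 codons on the minus strand and at most 129 on the plus strand. Prey bases differed from the reference at 277 of 31490 bases compared (0.880%), against 9 of 7713 (0.117%) in window 2 and 5 of 4242 (0.118%) in the chromosome 14 window. The differences recurred: at 20 positions in window 1, and at 0 in the other 2 windows, 2 or more joins differed. At 125952876 all 15 covering joins, from 5 clones, differed from the reference, and at 125950911 all 11, from 4 clones, did. Whether any of these reads belong to another copy of the repeat was not tested.

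In window 2 most joins lay in the gene. Of 162 joins, 134 (82.7%) lay within the 5691 bases that RefSeq gives Irf2bp2 (a length from GRCm38.p6), and 20 lay before its start. Those 5691 bases themselves make up most of the 10 kb window. The median lay 2142.5 bases after the start, with quartiles at 1154 and 3516 bases. The first kilobase of the gene held 18 joins, the second 37, the 2 kb after that 56, and the rest of the window 31. Plus-strand joins were 13 of 20 before the start and 12 of 18 in the first kilobase, against 15 of 56 between 2 and 4 kb. A join on the plus strand reads from the breakpoint towards higher coordinates, which at this gene is back towards its start.

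In the chromosome 14 window the joins lay mostly before the microRNAs. Of 117 joins, 75 (64.1%) lay before the Mir17 hairpin, 16 (13.7%) between the Mir17 and Mir92-1 hairpins, and 26 (22.2%) after them. The median lay 766 bases before the Mir17 hairpin. Plus-strand joins, which here read on in the direction of transcription of the hairpins, were 10 of 25 in the stretch over 2 kb before the hairpin, 21 of 24 in the next kilobase and 19 of 26 in the last kilobase before it. They were 13 of 16 over the cluster itself and 18 of 26 after it.

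**Figure D2:**
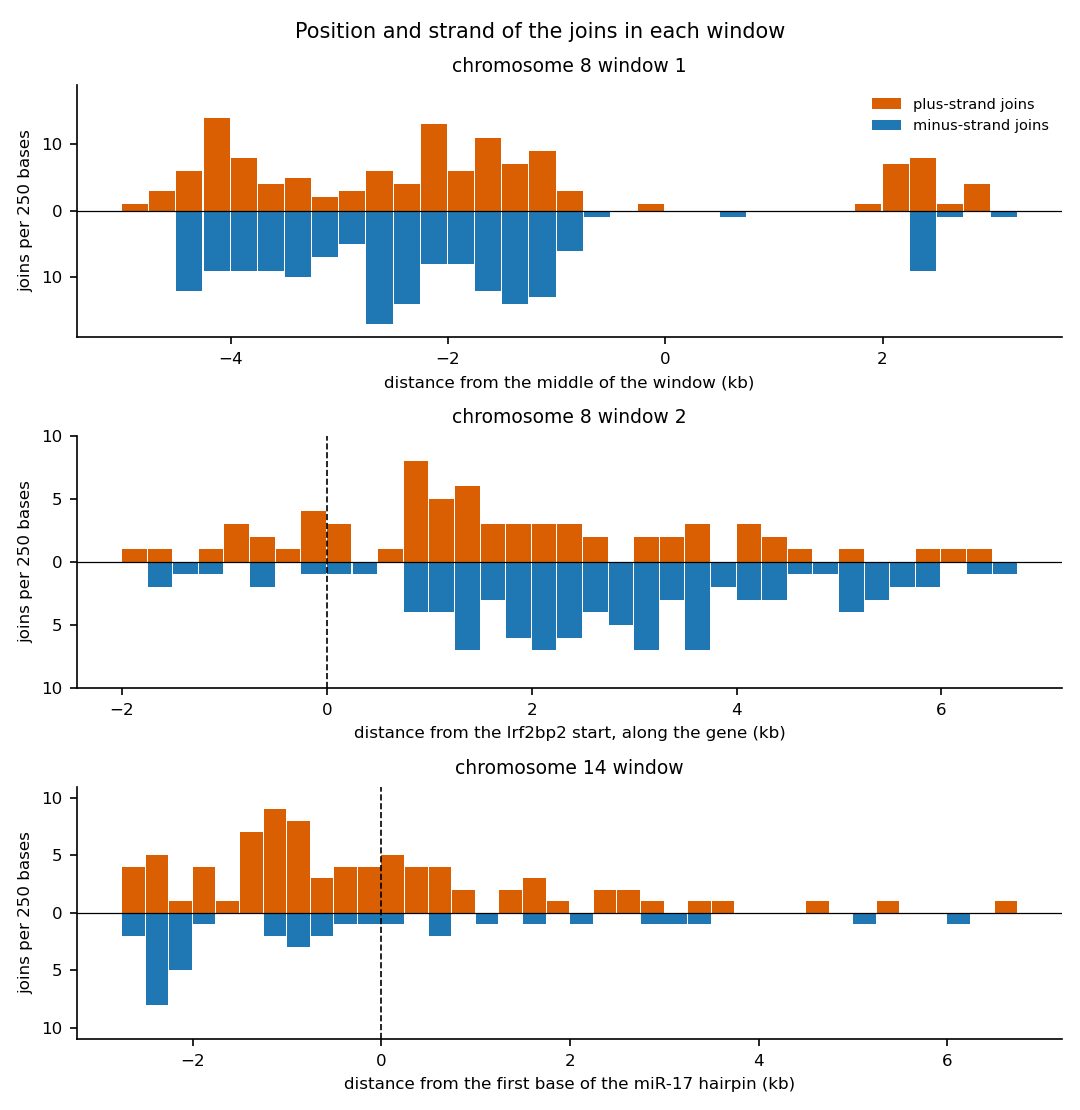
Joins per 250 bases (y axis) by distance in kb, with plus-strand joins above and minus-strand joins below the line, all clones summed. Window 1 is drawn from its middle, window 2 along Irf2bp2 from its start and the chromosome 14 window from the Mir17 hairpin, both marked by dashed lines; 134 of 162 joins of window 2 lay within the length of the gene.

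As a whole, plus-strand joins were 127 of 293 in window 1, 67 of 162 in window 2 and 81 of 117 in the chromosome 14 window. Over the clones with at least 5 joins in a window, the plus share averaged 48.1% ± 11.4 in window 1 (SD, n = 8), 37.6% ± 15.2 in window 2 (n = 6) and 71.2% ± 18.5 in the chromosome 14 window (n = 7). The last was above 50% in 6 of 7 clones (exact two-sided sign-flip permutation p = 0.0312, adjusted p = 0.0563), and so did not pass the threshold of 0.05 after Benjamini-Hochberg adjustment over 27 tests. Windows 1 and 2 did not pass either (same exact permutation test, adjusted p = 0.700 and 0.178). With libraries as the unit, the plus share of the chromosome 14 window passed (permutation test, adjusted p = 0.00916), but these 22 libraries share clones and are not independent, so that p is too small.

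Microhomology was more frequent at joins in the 3 windows than at other joins outside chromosome 12. They were compared within each clone, over the 8 clones with at least 5 joins; WT, with 4, was left out. Microhomology was present at 73.8% ± 9.78 of joins in the windows and 55.1% ± 6.05 of other joins (SD, n = 8 clones), a difference of 18.7 points that had the same sign in 7 of 8 clones (exact two-sided sign-flip permutation p = 0.0156, adjusted p = 0.0422). The exception was PAXX-/- clone 2, with 50.0% in the windows, from 6 of 12 joins, and 55.8% elsewhere. The call was lost without any 1 of 7 clones (all but PAXX-/- clone 2), where fewer clones also raise the smallest p. It was lost too without single libraries of XLF-/-PAXX-/- clone 2 (library 3), XLF-/- clone 2 (library 1 or 3) and PAXX-/- clone 2 (library 2), numbers that only name libraries. The densest window on chromosome 14, counted among the other joins, was not tested by itself. Its microhomology share was 68.6% to 76.4% in Ligase4-/- clone 2 and the XLF-/-PAXX-/- and XLF-/- clones. In the PAXX-/- clones microhomology was at 44 of 110 and 37 of 103 of its joins, and in WT at 12 of 33.

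Reads with a long gap between bait and prey were rare in the windows. A gap of over 20 bases was found in 1.23% ± 1.35 of window joins and 19.8% ± 8.21 of other joins (8 of 8 clones lower, exact permutation p = 0.00781, adjusted p = 0.0352). When such reads were left out, the microhomology difference was 6.04 points (exact permutation test, adjusted p = 0.211). The share of joins with any inserted or unaligned bases was 13.7 points lower in the windows with them and 2.70 points higher without them (exact permutation test, adjusted p = 0.211). The calls on long gaps and on inserted bases were each lost without any 1 of the 6 Ligase4-/-, XLF-/-PAXX-/- and XLF-/- clones, and without library 3 of XLF-/-PAXX-/- clone 2.

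Where bases were shared, fewer were shared on average in the windows. The mean microhomology was 2.79 ± 0.598 bases in the windows and 4.07 ± 0.228 in other joins (8 of 8 clones lower, exact permutation p = 0.00781, adjusted p = 0.0352). Reads with a long gap hold no microhomology, so leaving them out gave the same difference of -1.29 bases; its adjusted p, which also depends on the other tests, was then 0.105 (exact permutation test). This call too was lost without any 1 of those 6 clones or that library. The median was 3 bases in both. Microhomology of 2 to 5 bases was 59.6% of the window joins summed over clones, against 32.1% of other joins, and 4.55% of window joins shared 6 bases or more. The longest was 14 bases in the windows and 28 elsewhere.

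**Figure D3:**
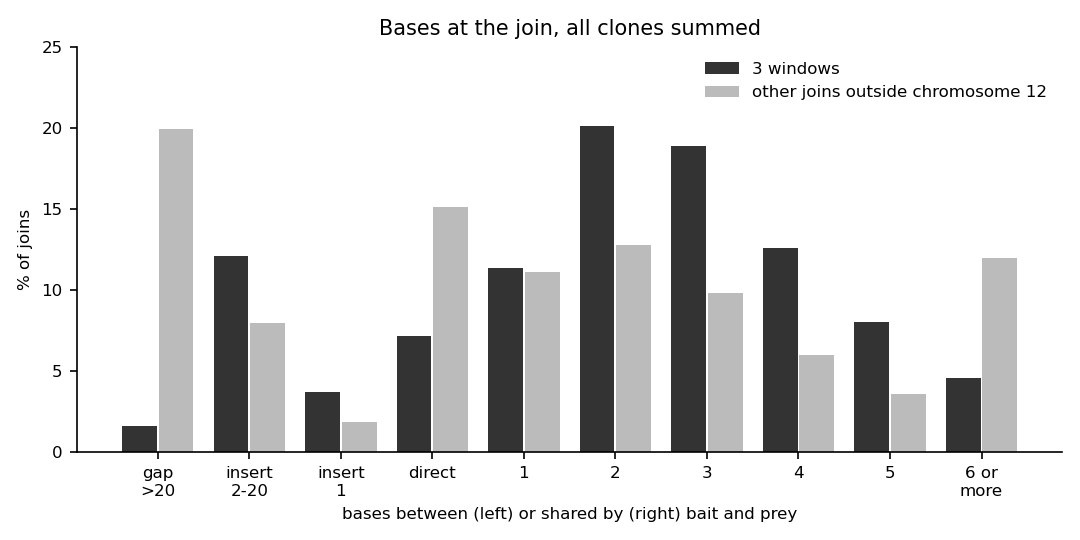
Percent of joins (y axis) by the number of bases between or shared by bait and prey (x axis), for the 3 windows (572 joins, dark) and other joins outside chromosome 12 (38724 joins, light), all clones summed. Gaps over 20 bases were 1.57% of window joins and 20.0% of other joins, and 2 shared bases were 20.1% and 12.8%.

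The most frequent shared stretch in the 3 windows was gc, at 28 of 432 microhomologies (6.48%), followed by g at 22, c at 21 and ag at 14. In window 2 gc made up 12 of 128. Reference bases around the joins averaged 54.3% G and C in window 1, 57.3% in window 2 and 54.6% in the chromosome 14 window, against 43.4% at other joins.

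By window, the sign of the difference in microhomology was the same and the calls were not. In window 1 inserted bases were 14.8 points less frequent than at other joins (exact permutation test, adjusted p = 0.0352). Without gaps over 20 bases the sign turned, to 0.650 points more frequent (exact permutation test, adjusted p = 0.908). Its microhomology share was 15.3 points higher, which did not pass (exact permutation test, adjusted p = 0.178). In the chromosome 14 window microhomology was 17.4 points higher in 7 of 7 clones (exact permutation p = 0.0156, adjusted p = 0.0422). That difference was 4.49 points without gaps over 20 bases (exact permutation test, adjusted p = 0.298), and 14.2 points over the 5 clones with at least 10 joins (adjusted p = 0.112), and neither passed. In window 2 it was 25.7 points higher in 6 of 6 clones, where 6 clones cannot give an exact permutation p under 0.0312 (adjusted p = 0.0563). All calls in window 1 and in the chromosome 14 window were lost without any 1 of the same 6 clones. They were also lost without library 3 of XLF-/-PAXX-/- clone 2. Those in the chromosome 14 window were lost too without library 1 or 3 of XLF-/- clone 2 or library 2 of PAXX-/- clone 2. The call on microhomology there was further lost without library 1 or 2 of Ligase4-/- clone 1.

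Set against Sα joins, no measure of the structure of the window joins passed the threshold after adjustment. Sα is the switch region joined when these cells switch to IgA. Its joins were taken as those at chr12:114489501-114509500. These 20 kb surround the place on chromosome 12, away from the bait, with the most joins, and no annotation was used. Inserted bases departed most, with a difference of -6.68 ± 6.11 points (SD over clones) between window joins and the 22.7% ± 5.20 of Sα joins. They were lower in 8 of 8 clones (exact permutation p = 0.00781, the smallest that 8 clones can give, adjusted p = 0.211). Microhomology was present in 73.8% ± 9.78 of window joins and 68.5% ± 9.77 of Sα joins (6 of 8 clones higher, exact permutation p = 0.0391, adjusted p = 0.211), and the mean microhomology was 2.79 ± 0.598 and 2.72 ± 0.238 bases (exact permutation test, adjusted p = 0.791). Gaps over 20 bases were at 1.23% and 2.34%. A p that misses the threshold does not show that they were alike: the difference in microhomology was 5.22 ± 7.09 points (SD over clones).

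**Figure D4:**
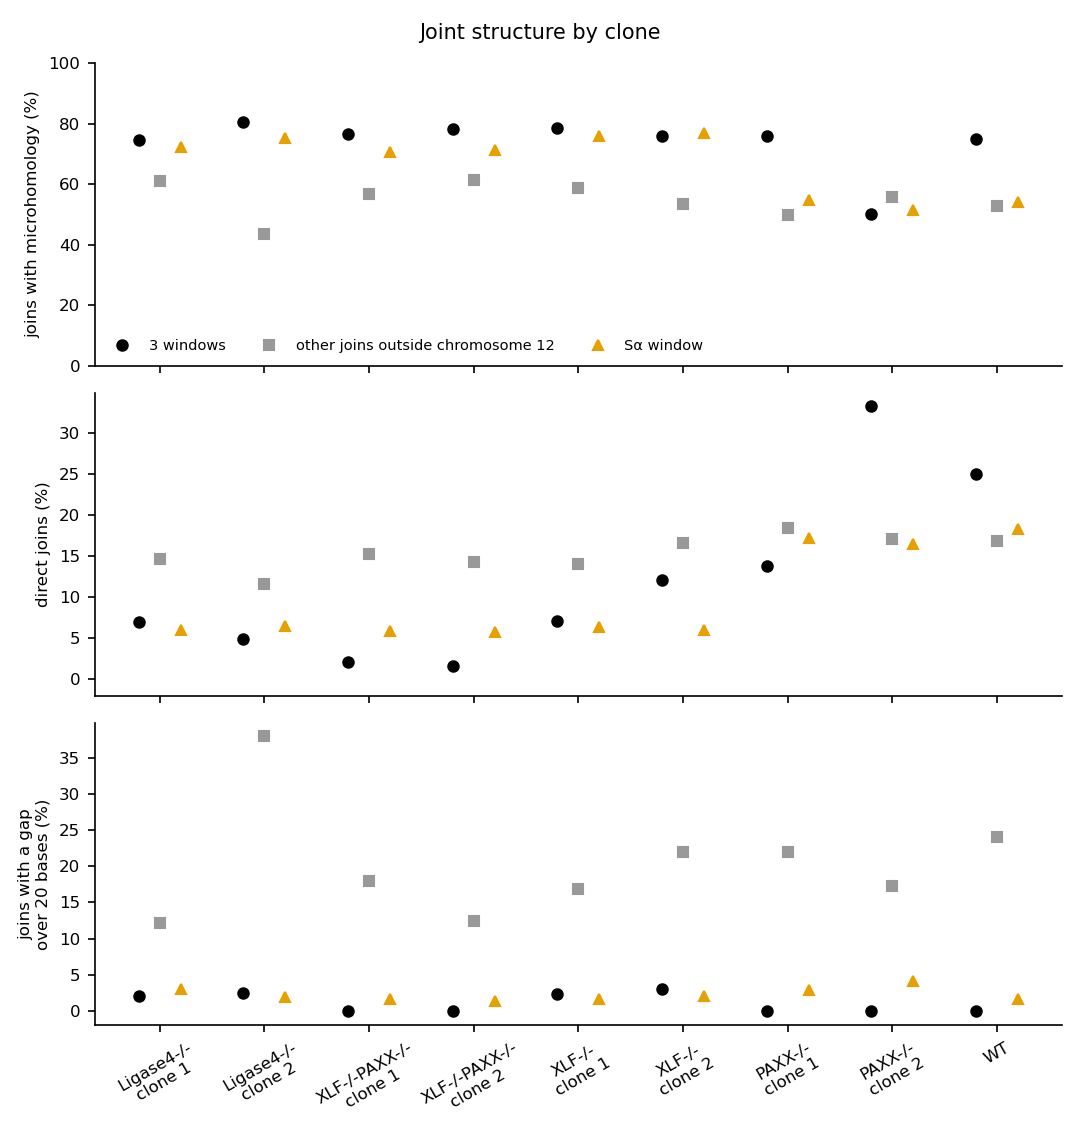
Share of joins with microhomology, of direct joins and of joins with a gap over 20 bases (y axes, percent) in each clone, for the 3 windows (circles), other joins outside chromosome 12 (squares) and the Sα window (triangles). Circles lie above squares for microhomology in every clone except PAXX-/- clone 2; WT has 4 window joins.

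Direct joins, in which bait and prey abut with no base between or in common, differed within the windows between clones grouped by genotype. They were 21 of 300 (7%) and 2 of 41 (4.88%) window joins in the Ligase4-/- clones. In XLF-/-PAXX-/- they were 1 of 47 (2.13%) and 1 of 64 (1.56%), and in XLF-/- they were 3 of 42 (7.14%) and 4 of 33 (12.1%). In PAXX-/- they were 4 of 29 (13.8%) and 4 of 12 (33.3%). WT had 1 of 4. The XLF-/-PAXX-/- clones were lowest and the PAXX-/- clones highest, with no overlap between any 2 of the 4 genotypes with 2 clones. Genotype held 72.2% of the variation between the 8 clones (exact permutation p = 0.00952, the smallest that 105 splits can give, adjusted over 3 tests p = 0.0286). The call was lost without any 1 of 7 clones (all but PAXX-/- clone 1; exact permutation test, adjusted p from 0.0857 to 0.514). It was also lost without single libraries of 4 clones (Ligase4-/- clone 1, both XLF-/- clones and PAXX-/- clone 1). The test treats clones as independent, while both XLF-/-PAXX-/- clones are described as offspring of a PAXX-/- clone. Except between XLF-/- and PAXX-/-, genotype and sequencing run cannot be told apart here either. Neither microhomology (exact permutation test, adjusted p = 0.429) nor inserted bases (adjusted p = 0.257) passed. Genotype held 46.7% of the variation in microhomology and 71.6% of that in inserted bases. A share near 72.2% was thus also seen for a measure that did not pass.

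The counts behind the PAXX-/- values were small. All 4 direct joins of PAXX-/- clone 2 lay in window 1, which held 6 of its 12 joins. In the other joins outside chromosome 12, direct joins were at 13.5% in Ligase4-/-, 14.8% in XLF-/-PAXX-/-, 15.6% in XLF-/-, 17.7% in PAXX-/- and 16.8% in WT. At Sα they were 5.72% to 6.49% in the 6 Ligase4-/-, XLF-/-PAXX-/- and XLF-/- clones, 17.2% and 16.5% in the PAXX-/- clones and 18.4% in WT. In the densest window on chromosome 14 they were 3.64% to 8.33% in 5 of those 6 clones (Ligase4-/- clone 1 had no join there), 17.3% and 18.4% in the PAXX-/- clones and 27.3% in WT, from 9 of 33 joins. High shares of direct joins in PAXX-/- were thus also measured outside the 3 windows.

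AGCT, a preferred target of AID and a motif that reads the same on both strands, was sought within 5 bases of each join. It was found at 11 of 293 joins of window 1 (3.75%), where 3.83% of all places in the bases covered had it as near. It was found at 8 of 117 joins in the chromosome 14 window (6.84%), against 6.99% of covered places. In window 2 it was near 17 of 162 joins (10.5%, 95% interval 6.23 to 16.3), against 5.92% of covered places, just below the interval. That interval treats pooled joins as independent, while 92 of the 162 came from Ligase4-/- clone 1. The difference was not tested over clones. Of other joins outside chromosome 12, 7.54% were as near to AGCT, a share inside the interval of window 2, and of Sα joins 28.8% were. A match here is a description of letters and not a site of AID action.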

How the data were processed

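The tables hold LAM-HTGTS joins of 27 libraries, made from 9 clones. Bowtie2 and mm9 are named in the submitters' processing notes, and no source used here gives further steps. Each line of a deposited table is 1 join, with coordinates of bait and prey on the read and in the genome and 20 reference bases around the join. Each table pools the 3 libraries of 1 clone. They were told apart by name, and no name carries a replicate number, so that library and GEO replicate could not be matched and library numbers here are names only. Nothing says whether the replicates were separate cultures.

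The windows, lists and tests were chosen with earlier results of these data known. Shared bases were counted where both alignments covered the same bases of a read. Windows were compared with other joins outside chromosome 12 within each clone that had at least 5 joins, by exact two-sided sign-flip permutation over clones, adjusted (Benjamini-Hochberg) over 27 tests. Genotypes were compared by exact permutation of clones, adjusted over 3. The tests were tested on simulated data. Landmarks came from exact matches of 30 bases between prey reads and RefSeq's GRCm38.p6 promoters and hairpins. The named positions were, in each window, those with the most distinct joins by uncorrected bait end (lowest coordinate in ties). No promoter, gene body or genome of mm9 was used here. Python 3.11.15, numpy 2.4.6, pandas 2.3.3, scipy 1.17.1 and matplotlib 3.10.9 were used. Alternatives are given in the closing section.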

Additional observations from a re-analysis of the deposited data

How the results depend on the processing

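Values here are differences in percentage points or bases between window joins and other joins outside chromosome 12, averaged over clones. Most that turned round had not passed the exact permutation test to begin with. Without gaps over 20 bases, the microhomology difference of the 3 windows was 6.04 points against 18.7 with them, and that in inserted bases was 2.70 points against -13.7; inserted bases were 0.650 points in window 1, 2.59 in window 2 and 7.57 in the chromosome 14 window. Set against Sα joins, the 3 windows differed by 5.22 points in microhomology, 1.47 in direct joins, -6.68 in inserted bases and -1.11 in long gaps, by 0.0644 bases in mean microhomology and by -3.01 bases in bait length. Against Sα, direct joins of window 1 gave 6.02, mean microhomology gave 0.304 in window 2 and 0.239 in the chromosome 14 window, and bait length gave -2.82, -3.21 and -2.18 in the 3 windows. With clones of at least 1 join, direct joins of window 1 gave 3.29, the plus-strand share less 50% gave 3.89 in window 1 and 2.84 in window 2, and bait length in window 2 gave -1.39. With libraries as the unit, direct joins of window 1 gave 3.12, bait length in window 2 gave -0.410, and the plus-strand share of the chromosome 14 window, 21.2 points above 50%, passed. In each case the comparison itself changed (fewer reads, other joins or other units), and any further cause was not tested. The joins within 10 kb of the midpoint of the chromosome 14 window had an interquartile distance of 3557 bases, against 2370. Without Ligase4-/- clone 1, chosen after seeing the data, it was 3129 bases.

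Leaving out 1 clone or library gave 16.1 to 22.2 points for microhomology, -8.04 to -3.84 for direct joins, -15.1 to -11.3 for inserted bases and -19.8 to -16.2 for long gaps in the 3 windows. It gave -7.60 to 1.66 for direct joins and -4.92 to 0.834 for the plus-strand share in window 1, -2.17 to 2.37 bases for bait length in window 2, and 16.4 to 26.4 for the plus-strand share of the chromosome 14 window. Of the variation between clones, genotype held 58.9% to 98.0% for direct joins and 42.1% to 92.0% for inserted bases. No paired analysis was possible because the library names carry no replicate number that would pair libraries of different clones; window joins and other joins were paired within each clone throughout, and the runs that PAXX-/- and XLF-/- share were compared within each run for the shares.

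Counts limit these values: WT had 4 window joins and entered no test against other joins, and window 2 was tested in 6 clones.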
